A study of Macaca mulatta with 12 samples.

Results

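The microRNA genes mml-mir-143 and mml-mir-145 of the rhesus macaque lie next to each other in the genome and are known as the smooth muscle microRNA cluster. Both were chosen by name from the pre-miRNA list of the study. They are 2 of its 832 readable pre-miRNAs, and they give 4 of its 1219 distinct mature sequences. Abundance was expressed as RPTM (reads per 10000000 valid reads). All 4 arms were among the 371 mature sequences past the abundance filter, for which the study asked a mean of 5 RPTM or more and a standard deviation (SD) of 1 or more.

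The animals were untreated wild-type Macaca mulatta of 36 months, and 12 small RNA profiles came from 8 tissues of 2 animals. The kidney, the muscle, the small intestine and the large intestine were each profiled 2 times, and the liver, the lung, the spinal cord and the occipital lobe of the brain 1 time. No source used here says which animal a profile came from, so that p-values measure the spread between these samples, which may be technical. The profiles held 22118095 to 25579064 valid reads, of which 35.9% to 68.4% were assigned to a mature sequence. Marker miRNAs were high where the tissue labels place them. In muscle 6 of 6 skeletal muscle sequences were higher, and in the neural tissues 7 of 7 neural sequences (edgeR, adjusted p below 0.05). Of all sequences tested, 22.6% and 43.7% were higher. Some members passed the abundance filter through the tissue where they are high. Examples are miR-206-3p (median 0, 137 RPTM in the second muscle profile) and miR-219-1-5p (median 0.82, 943 RPTM in the spinal cord). Their calls were thus set in advance, and these counts do not test the labels. In the liver miR-122a-5p reached 7320 RPTM, where its median over the profiles was 2.03 RPTM.

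A pre-miRNA is a hairpin from which the enzyme Dicer cuts a duplex, and either strand of the duplex, the 5p arm or the 3p arm, can be loaded into an Argonaute protein. Bases 2 to 8 of the loaded strand, the seed, pair with target mRNAs. The genes of miR-143 and miR-145 are transcribed together under serum response factor and myocardin, and both miRNAs are known for their high level in smooth muscle cells, where they favour the contractile over the proliferating state. In the intestine they are known from the mesenchymal and smooth muscle layers rather than from the epithelium. In bulk tissue, fewer cells of a type and less RNA per cell cannot be told apart.

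Both genes are on the plus strand of 1 contig in the build Mmul_8.0.1, mml-mir-143 at positions 147550465 to 147550570 and mml-mir-145 at positions 147552171 to 147552258, with 1600 bases between them. The RefSeq gene table of another rhesus assembly, used here for neighbours only, lists MIR143 and MIR145 on chromosome 6 with the protein-coding genes IL17B and CSNK1A1 on either side of the pair. The hairpins are shown to place the arms, which are in capitals.
mml-mir-143: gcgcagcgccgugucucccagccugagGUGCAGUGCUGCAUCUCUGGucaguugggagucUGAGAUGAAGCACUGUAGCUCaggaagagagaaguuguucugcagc
mml-mir-145: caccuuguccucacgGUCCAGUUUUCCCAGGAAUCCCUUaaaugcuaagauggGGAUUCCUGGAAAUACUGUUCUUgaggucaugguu

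The annotated mature sequences are shown next, with their seeds in capitals, because the reads started elsewhere on 2 of the 4 arms. No seed is shared between the arms.
mml-miR-143-5p: gUGCAGUGcugcaucucugg
mml-miR-143-3p: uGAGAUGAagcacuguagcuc
mml-miR-145-5p: gUCCAGUUuucccaggaaucccuu
mml-miR-145-3p: gGAUUCCUggaaauacuguucuu

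Reads were counted for an arm when they matched the hairpin exactly and both ends lay within 2 nucleotides (nt) of the annotated ends. miR-143-3p was the most abundant mature sequence in 5 of the 12 profiles, those of both intestines and the lung. Its level was 2962642 and 3167003 RPTM in the small intestine, and 2345167 and 3567909 RPTM in the large intestine. The lung had 1480577 RPTM, below the lowest of the 4 intestinal profiles.

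In muscle, miR-143-3p had 946137 and 657534 RPTM, a range that held the 683533 RPTM of the spinal cord. In kidney it had 517032 and 322796 RPTM, a range that held the 343634 RPTM of the liver. The occipital lobe was lowest with 103028 RPTM. The range over the 12 profiles was thus 34.6-fold, the small and large intestine overlapped, and so did muscle with spinal cord and kidney with liver. As a share of the assigned reads, miR-143-3p ran from 1.83% in the occipital lobe, where it ranked 12, to 58.8% in the second large intestine profile.

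miR-145-5p is the arm usually taken as the functional strand of mml-mir-145, and it was far less abundant. It had 749.6 and 861 RPTM in the small intestine, and 399 and 931 RPTM in the large intestine. Muscle followed with 363 and 326 RPTM, then the lung with 264, the spinal cord with 183 and the liver with 149 RPTM. The kidney profiles had 132.5 and 36.0 RPTM and the occipital lobe 36.5 RPTM.

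The order of the tissues was close to that of miR-143-3p, but the steps between neighbours were small against the spread of a tissue. The 2 large intestine profiles differed by 2.33-fold and the 2 kidney profiles by 3.69-fold, so that the small intestine lay inside the range of the large intestine and the occipital lobe inside that of the kidney. The lower large intestine profile was only slightly above muscle.

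miR-145-3p, the arm that is usually taken as the passenger strand, had more reads than miR-145-5p in all 12 profiles. It had 2018 and 2568 RPTM in the small intestine, and 1517 and 1728 RPTM in the large intestine. The lung had 1329 RPTM, muscle 647 and 928, and the spinal cord 455 RPTM. The liver had 411 RPTM, the kidney 412 and 162, and the occipital lobe 99.5 RPTM. The liver lay inside the range of the kidney, and the 4 intestinal profiles lay above all others.

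miR-143-5p had few counted reads outside the intestines. It had 47.1 and 83.1 RPTM in the small intestine and 36.2 and 30.6 RPTM in the large intestine, against 1.56 to 12.1 RPTM in the 7 other profiles with a read. In the occipital lobe no read was counted, which allows up to 1.30 RPTM (3 reads of this library, counting error only). Length variants and tails of this arm, described further on, added 7 reads there. With tailed reads the first kidney profile had 36 reads in place of 4, and the lung 90 in place of 17.

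**Figure D1:**
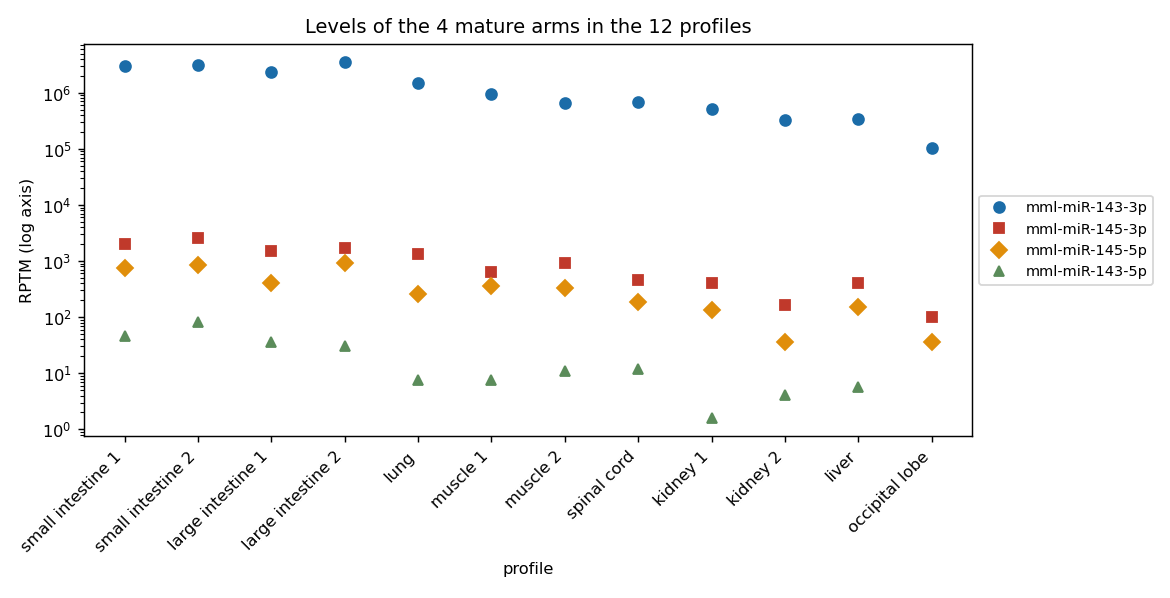
Levels in RPTM (log axis) of the 4 mature arms in the 12 profiles on the horizontal axis, 1 point per arm and profile. miR-143-3p lies above the other arms in every profile, miR-145-3p lies above miR-145-5p in every profile, and the occipital lobe has no point for miR-143-5p because no read was counted there.

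Tissues were compared by edgeR's quasi-likelihood test on the counts of all 371 sequences, with TMM (trimmed mean of M values) factors and Benjamini-Hochberg adjusted p-values. The fit had 7 groups, since occipital lobe and spinal cord were combined as neural tissue, and each contrast set a tissue against the mean of the others on the log2 scale. All 4 arms were higher in the intestines than in the other 5 groups. In this comparison 20.2% of the 371 sequences were higher, and their median log2 fold change was -0.10.

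The log2 fold change of miR-143-3p in the intestines was 3.32 (standard error, SE, 0.48, edgeR adjusted p = 0.00020), and its intestinal profiles did not overlap the other 8. That of miR-145-5p was 3.12 (SE 0.41, edgeR adjusted p = 0.00012), again without overlap of the levels. The rarer arms had 2.87 (SE 0.33) for miR-145-3p and 3.91 (SE 0.64) for miR-143-5p, with edgeR adjusted p = 3.37e-05 and 0.00056. How many of the 371 sequences also lacked overlap was not counted, so that the lack of overlap does not set the arms apart. Ordered by log2 fold change, the 4 arms held ranks 17 to 25 of the 371 sequences. They were past the threshold under each of the alternatives tried, and miR-143-5p moved to 4.99 without the spinal cord profile.

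The scale of this comparison depended on the library size. With the valid reads as library size and no TMM factors, the median of all sequences in the intestinal contrast was -1.0, and 30 sequences were called higher and 163 lower, in place of 75 and 52. miR-143-3p was then at 2.37 and miR-145-5p at 2.14. Relative to the median of all sequences, miR-143-3p stood 3.43 higher with TMM factors and 3.37 higher without them. For miR-145-5p these differences were 3.22 and 3.14 on the log2 scale.

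Between the 2 intestines no difference was detected for either gene. The log2 fold change of large over small intestine was 0.05 (SE 0.74, edgeR adjusted p = 1) for miR-143-3p and -0.15 (SE 0.65, edgeR adjusted p = 0.99) for miR-145-5p. For miR-145-3p it was -0.41 (SE 0.53) and for miR-143-5p -0.88 (SE 0.96), both with edgeR adjusted p = 0.93. Only 7 of all sequences, 1.89%, were called in this comparison, with 1.62% as lower, and with 2 profiles on each side the SE of the arms ran from 0.53 to 0.96. The direction of the first 2 values turned when a large intestine profile was left out: without the second one miR-143-3p was at -0.25, and without the first one miR-145-5p was at 0.39.

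In skeletal muscle, where 38% of the sequences were called in either direction and 22.6% as higher, none of the 4 arms was called. miR-143-3p had a log2 fold change of -0.22 (SE 0.59, edgeR adjusted p = 0.84), and miR-145-5p had 0.55 (SE 0.49, edgeR adjusted p = 0.40). miR-145-3p and miR-143-5p had 0.12 (SE 0.41) and -0.23 (SE 0.83). The median of all sequences was -0.22. miR-143-3p was at 0.07 without the second muscle profile and at 0.04 without the spinal cord profile. With only the 8 numbered profiles, where muscle was set against the kidney and both intestines, 3 arms were called lower: miR-143-3p at -1.67, miR-143-5p at -1.77 and miR-145-3p at -1.11 (edgeR adjusted p = 0.0033, 0.022 and 0.023). In that fit miR-145-5p was at -0.75 (edgeR adjusted p = 0.21).

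In kidney 17.5% of the 371 sequences were called, 4.58% of the 371 as lower (48 higher and 17 lower, or 31 and 42 with the valid reads as library size), and the median of all sequences was -0.30. miR-145-5p had a log2 fold change of -1.54 (SE 0.57, edgeR adjusted p = 0.084), miR-145-3p -1.26 (SE 0.46, edgeR adjusted p = 0.079), miR-143-3p -0.94 (SE 0.62, edgeR adjusted p = 0.32) and miR-143-5p -1.69 (SE 0.95, edgeR adjusted p = 0.24). None of these values passed the threshold. The calls changed with single libraries: without the occipital lobe all 4 arms passed, with adjusted p = 0.025 for miR-143-3p at -1.06 and 0.036 for miR-145-5p at -1.60 (edgeR). Without the spinal cord miR-145-3p passed at -1.03 (edgeR adjusted p = 0.043). Without the second kidney profile miR-143-3p was at -0.64 and miR-145-5p at -0.80, far from the threshold. With only the 8 numbered profiles all 4 arms were called lower in kidney, miR-143-3p at -1.93 and miR-145-5p at -2.54 (edgeR adjusted p = 0.0030 and 0.0053).

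In the neural tissues all 4 arms were lower, where 24.3% of all sequences were lower, 43.7% higher and 67.9% called in either direction, and the median of all sequences was 0.89. miR-143-3p had a log2 fold change of -2.77 (SE 0.71, edgeR adjusted p = 0.0040) and miR-145-5p of -2.69 (SE 0.62, edgeR adjusted p = 0.0019). miR-145-3p had -2.94 (SE 0.52, edgeR adjusted p = 0.00027) and miR-143-5p -2.25 (SE 0.92, edgeR adjusted p = 0.044).

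The neural result joined a pair of tissues that stood apart from each other, since miR-143-3p was at 683533 RPTM in the spinal cord and 103028 RPTM in the occipital lobe. Without the spinal cord profile the log2 fold changes were -4.40 for miR-143-3p, -4.00 for miR-145-5p and -4.15 for miR-145-3p. Without the occipital lobe they were -1.98, -1.99 and -2.27, all still past the threshold, and the lone neural profile was then assumed to vary like the other groups. miR-143-5p lost its call in 11 of 17 alternatives, among them the one without the occipital lobe, where it was at -1.26 (edgeR adjusted p = 0.13). With the valid reads as library size the median of all sequences was 1.97, with 232 called higher and 46 lower in place of 162 and 90, and miR-143-3p was at -1.45 (edgeR adjusted p = 0.060) and miR-145-5p at -1.41 (edgeR adjusted p = 0.081). Relative to that median they were at -3.42 and -3.38, against -3.67 and -3.59 with TMM factors.

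**Figure D2:**
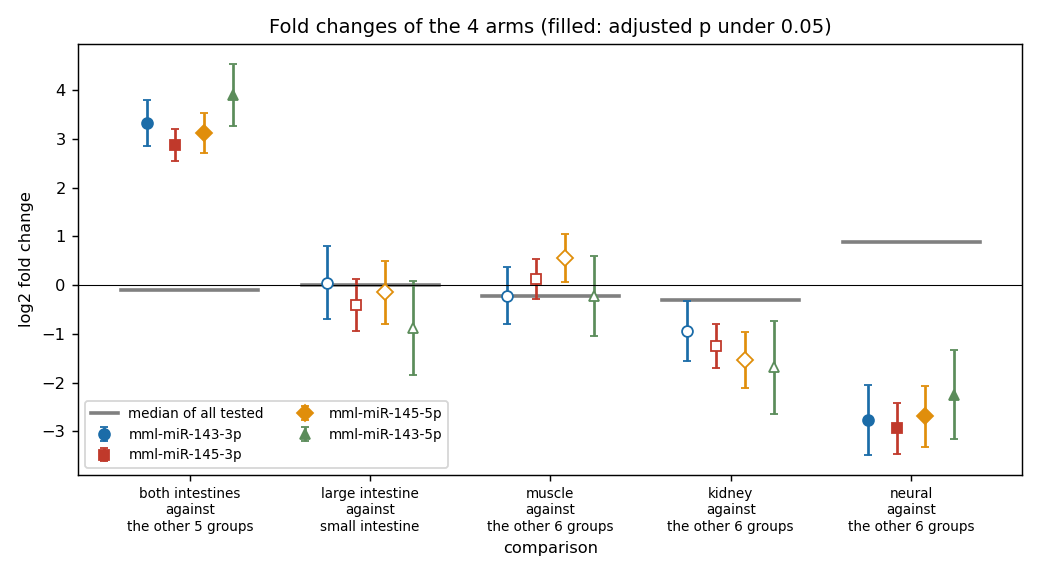
Log2 fold changes (vertical axis) of the 4 arms in the 5 tissue comparisons (horizontal axis) from edgeR, with bars of 1 standard error and filled symbols for an adjusted p below the threshold. Gray lines give the median of all 371 sequences. All 4 arms are filled and above the line in the intestines, all 4 are filled and below it in the neural tissues, and none is filled in the other comparisons.

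Other miRNAs known from smooth muscle were listed to set the cluster beside them. Of their 15 sequences, 7 were higher and 1 lower in the intestines, with a median log2 fold change of 1.0 (34.2% of all sequences were called in either direction). miR-490-3p, which lies in an intron of the muscarinic receptor gene CHRM2, had 3.23 (SE 0.62, edgeR adjusted p = 0.0024), close to the values of the cluster. In the neural tissues, where the cluster was lower, miR-490-3p was higher, at 1.79 (SE 0.66, edgeR adjusted p = 0.030). It was highest in the spinal cord with 61.5 RPTM, and its median over the profiles was only 10.2 RPTM. miR-21-5p, a miRNA of many growing and injured tissues, had 1.38 (SE 0.31, edgeR adjusted p = 0.0055), and miR-221-3p had 1.20 (SE 0.36, edgeR adjusted p = 0.023). miR-133a-3p, shared with skeletal and heart muscle, had 1.44 (SE 0.39, edgeR adjusted p = 0.013). miR-204-5p had -1.60 (SE 0.42, edgeR adjusted p = 0.012).

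Their summed level did not follow the cluster, being 97999 to 118172 RPTM in the intestines and 139300 to 381384 RPTM in the other profiles. This sum reflects its most abundant members and hides the rarer ones. The medians of miR-26a-1-5p and miR-21-5p were 62708 and 63595 RPTM, and miR-133a-3p reached 144690 RPTM in muscle. The median of miR-221-3p was 594 RPTM. The sums here and below are scaled to valid reads, whereas the fold changes used TMM factors, so that the 2 are on unlike scales. In the intestinal contrast the median log2 fold change of all sequences was -1.0 with valid reads and -0.10 with TMM factors. In the neural tissues 4 of the 15 were higher and 7 lower, where 43.7% and 24.3% of all sequences were. In muscle 3 were higher and 1 lower, where 22.6% and 15.4% of all sequences were, so that the share of higher ones was near that of all sequences. In kidney 6 were higher and 2 lower, where 12.9% and 4.58% of all sequences were. None of the 15 was higher and 1 was lower in the large than in the small intestine.

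Markers of other cell types were also called in the intestinal comparison, in which 20.2% of all sequences were higher and 14% lower. All 11 epithelial sequences, of the miR-200 family, miR-192, miR-194, miR-215 and miR-375, were higher, with a median log2 fold change of 5.47 and summed levels of 499222 to 2184497 RPTM in the intestines against 7990 to 1243371 RPTM elsewhere. Among them miR-215-3p (median 0.22, 270 RPTM in the first small intestine profile) passed the abundance filter through the intestines. Its call was thus set in advance. Of the 4 stromal sequences of miR-199a and miR-214, 2 were higher, with sums of 5013 to 7189 RPTM against 418 to 19815 RPTM. The blood cell list went both ways, with 3 of 7 sequences higher and 2 lower, and sums of 1580 to 3016 RPTM against 747.5 to 12032 RPTM. The endothelial miR-126-3p was lower, at 325 to 444 RPTM against 493 to 9051 RPTM. Of these lists no member was at 0 in all 4 intestinal profiles, and their part in the result of the cluster was not tested.

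In the neural tissues members of the same lists were lower too. There 4 of 4 stromal, 9 of 11 epithelial, 4 of 7 blood cell and 1 of 1 endothelial sequences were lower, where 24.3% of all sequences were, and 2 epithelial members were at 0 in both profiles. The summed stromal level was 418 to 952 RPTM in the neural tissues. The part of these cell types in the result was not tested.

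The ratio of the 2 genes was set within each profile, where library size cancels. It is read between profiles only, since adapter ligation and adapter removal can recover different sequences unequally. A run of 5 letters of miR-145-5p (GGAAU, bases 15 to 19) was identical to letters 2 to 6 of the 3' adapter. For miR-145-3p (UGGAA, bases 8 to 12) the run was identical to its letters 1 to 5. For each arm of miR-143 the run had 3 letters. The effect of this on the counts was not tested.

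The ratio of miR-143-3p to miR-145-5p was 3952 and 3679 in the small intestine and 5881 and 3834 in the large intestine. It was 2604 and 2017 in muscle, 3901 and 8978 in kidney, 5616 in the lung and 3731 in the spinal cord. The occipital lobe had 2822 and the liver 2303. The lowest and the highest profile differed by 4.45-fold, against 34.6-fold for miR-143-3p alone. The highest ratio came from the second kidney profile, where miR-145-5p was counted in only 87 reads.

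On the log2 scale the ratio was 12.05 ± 0.31 (SD, n = 4) in the intestines and 11.79 ± 0.72 (SD, n = 8) in the other profiles, a difference of 0.27 (two-sided exact permutation test, p = 0.50, adjusted p = 0.99 over the 26 tests of ratios, ends and tails). The mean difference within the 4 tissue pairs was 0.57 against 0.79 between profiles of different tissues (one-sided exact permutation test, p = 0.19, adjusted p = 0.94). The pairs were thus closer than profiles of different tissues by an amount that this test did not separate. With tailed reads counted too, the mean difference within pairs was 0.44 (one-sided exact permutation test, p = 0.057), and no single tissue-pair test can pass after adjustment over the 26. With miR-145-3p in place of miR-145-5p the ratio ran from 709 in the second muscle profile to 2065 in the second large intestine profile.

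**Figure D3:**
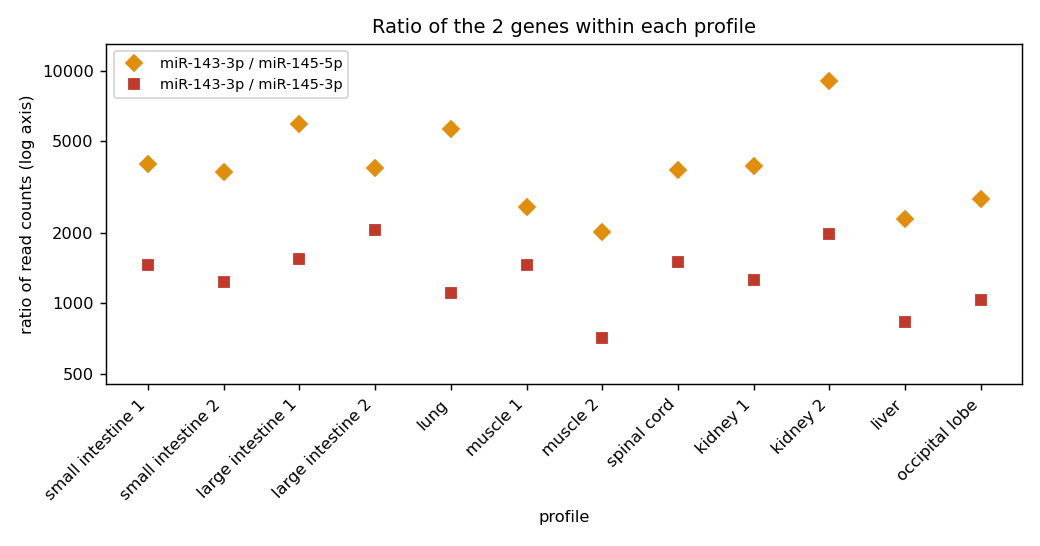
Ratio of the read counts of miR-143-3p to miR-145-5p (diamonds) and to miR-145-3p (squares) on a log axis in each of the 12 profiles. The second kidney profile holds the highest ratio to miR-145-5p, 8978, and the second muscle profile the lowest of both ratios, 2017 and 709.

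Within mml-mir-145, the ratio of the 3p to the 5p arm ran from 1.78 in the first muscle profile to 5.04 in the lung. It was 3.8 and 1.86 in the 2 large intestine profiles. The log2 ratio of the 5p to the 3p arm was -1.46 ± 0.43 (SD, n = 4) in the intestines and -1.58 ± 0.47 (SD, n = 8) elsewhere (exact permutation test, p = 0.66, adjusted p = 0.99). Of all 57437 reads of this hairpin, with length variants and tails, 30.5% were from the 5p arm and 68.6% from the 3p arm.

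Within mml-mir-143, the 3p arm held nearly the whole output, 65049638 of 65051444 reads. The log2 ratio of the 3p to the 5p arm ran from 15.2 to 18 and was 15.98 ± 0.65 (SD, n = 4) in the intestines and 16.72 ± 0.97 (SD, n = 8) elsewhere (exact permutation test, p = 0.22, adjusted p = 0.94). The 5p arm had only 581 counted reads in all, against 1745 with length variants and tails, so that this ratio is coarse in most profiles. Tails, left out of the counts, were on 66.0% of the reads of the 5p arm and 37.3% of those of the 3p arm. The counting rule thus raised this ratio. Its highest value came from the first kidney profile, which had 4 counted reads of the 5p arm and 36 with tailed reads.

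The levels of the arms rose and fell together over the 12 profiles. On the log2(RPTM + 1) scale Pearson's r was 0.93 between miR-143-3p and miR-145-5p, 0.96 between miR-143-3p and miR-145-3p, and 0.87 to 0.96 over the 6 pairs of arms. The 12 points share the libraries and the scaling of each profile, and 8 of them come in tissue pairs.

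Among the 367 other sequences, those most like miR-143-3p by the same correlation were miR-155-5p (0.90), miR-28-3p (0.84), miR-203-3p (0.82), miR-147b-3p (0.81) and miR-142-3p (0.81), where the median of the 367 was -0.37. For miR-145-5p they were miR-155-5p (0.79), miR-28-3p (0.79), miR-142-5p (0.75), miR-147b-3p (0.75) and miR-142-3p (0.72), with a median of -0.29. miR-155-5p, known from activated immune cells, had 231 to 381 RPTM in the intestines and at most 177 RPTM elsewhere. miR-28-3p spanned only 7949 to 22037 RPTM. miR-203-3p, known from skin and other epithelia, was highest in the lung with 3364 RPTM.

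Length variants and tails were read by letting the start and the templated end lie within 5 nt of the annotation and by taking up to 2 further letters that do not continue the hairpin as a tail, given in capitals. For miR-143-3p 7 variants held more than 2% of its reads each, all from the annotated start. The 5 most frequent are shown because they differ only at the last letters.
miR-143-3p as annotated: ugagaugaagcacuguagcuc
miR-143-3p, 1 nt shorter: ugagaugaagcacuguagcu
miR-143-3p, 2 nt shorter with a tail: ugagaugaagcacuguagcC
miR-143-3p with a tail: ugagaugaagcacuguagcucU
miR-143-3p, 1 nt longer: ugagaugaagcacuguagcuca

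In the order shown, these held 27.9%, 26.2%, 14%, 10.5% and 6.03% of the reads of miR-143-3p. Untailed reads with the annotated end and with the end 1 nt before it were thus about equally frequent. Among untailed reads the annotated end took 35.6% to 56.0% and the end 1 nt before it took 28.8% to 51.4% over the profiles. The next letter of the hairpin is an a, so that an added A after the annotated end cannot be seen. Likewise, a U or C added to a shorter read that completes the annotated sequence was counted as templated. The use of the ends and the share of C tails of this arm can therefore not be fully told apart.

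The annotated form of miR-145-5p was rare, with 0 to 47 identical reads in a profile. The main form ended 1 nt earlier, and a form with a C in its last place came next.
miR-145-5p, 1 nt shorter: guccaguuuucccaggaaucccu
miR-145-5p, 2 nt shorter with a tail: guccaguuuucccaggaaucccC
miR-145-5p, 2 nt shorter: guccaguuuucccaggaauccc

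These held 48.0%, 19.7% and 10.1% of the 17530 reads of miR-145-5p. Among untailed reads the end 1 nt before the annotated one took 53.2% to 77.2%, and it was the most used end in all 12 profiles. The seed of this arm was unchanged, since 98.1% to 100% of its reads began at the annotated start.

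On the other arm of mml-mir-145 the start moved. Of the reads of miR-145-3p, 86.4% to 92.3% over the profiles began 2 nt after the annotated start and 0.317% to 3.03% at the annotated start. Read from there, the seed was another one, in capitals here.
miR-145-3p from its most frequent start: aUUCCUGGaaauacuguucuu
This form was the most frequent one, with 33.0% of the reads of the arm. For miR-143-5p, 97.6% of all reads began 1 nt before the annotated start, which also moves the seed.
miR-143-5p from its most frequent start: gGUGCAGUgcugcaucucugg

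miR-143-3p itself began almost always at the annotated base. The share of its reads with another start was small, with 0.83% ± 0.09 (SD, n = 4) in the intestinal profiles and 0.64% ± 0.05 (SD, n = 8) elsewhere. The ranges, 0.762% to 0.953% and 0.55% to 0.715%, did not overlap. The exact permutation test gave p = 0.0020, the smallest value that 495 arrangements allow, and an adjusted p = 0.053 over 26 tests. The adjusted value missed the threshold. It is the lowest that 1 such test can reach alone with this number of profiles and tests, so that the test leaves the difference undecided.

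**Figure D4:**
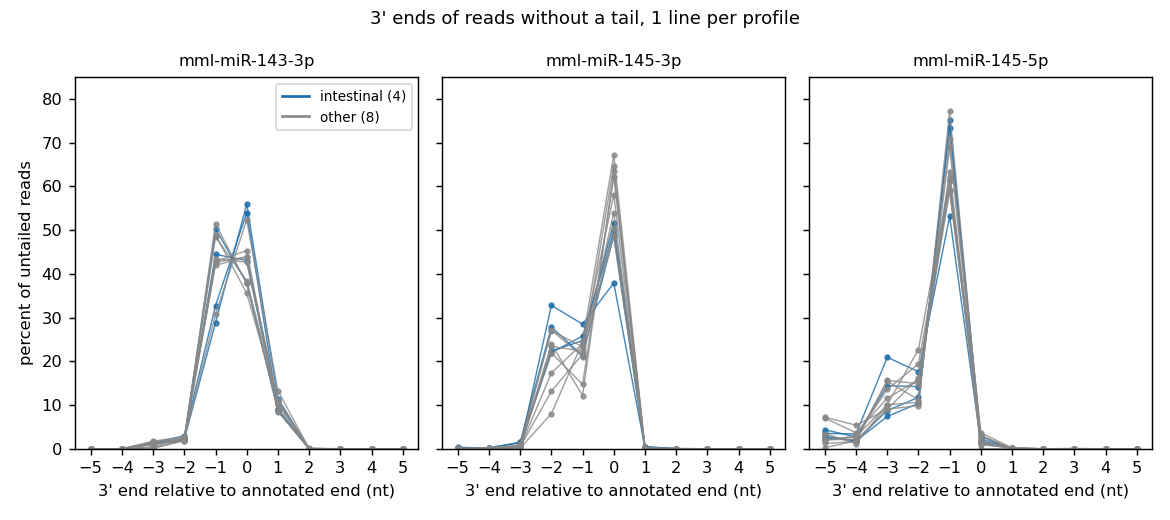
Share of untailed reads (percent, vertical axis) by the position of the 3' end relative to the annotated end (nt, horizontal axis) for miR-143-3p, miR-145-3p and miR-145-5p, with 1 line per profile, blue for the 4 intestinal and gray for the 8 other profiles. miR-143-3p has peaks at -1 and 0, and miR-145-5p has its peak at -1 in all profiles. Most lines of the intestines run near the others, but some points lie outside them. The second small intestine profile has 37.9% at 0 for miR-145-3p and 53.2% at -1 for miR-145-5p. The lowest of the 8 other profiles at these points is the lung, with 48.6% and 59.0%.

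The mean templated end of miR-143-3p was -0.38 ± 0.10 nt (SD, n = 4) in the intestines and -0.41 ± 0.07 nt (SD, n = 8) elsewhere (exact permutation test, p = 0.60, adjusted p = 0.99). For miR-145-5p it was -1.58 ± 0.20 nt (SD, n = 4) and -1.57 ± 0.15 nt (SD, n = 8), with p = 0.98 in the exact permutation test and an adjusted p = 0.99. No difference in the mean ends of these 2 arms was detected between the intestines and the other profiles. The ends of miR-145-3p were not tested. Its mean end was -0.96 to -0.72 nt in the intestines and -0.81 to -0.41 nt elsewhere.

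A tail was found on 29.8% to 46.5% of the reads of miR-143-3p, and both extremes came from the large intestine. Tails of C alone made 31.0% of the reads in the first large intestine profile and 9.43% in the second. They made 14.4% and 21.1% in the small intestine, 10.3% and 26.6% in kidney, and 15.5% and 13.4% in muscle. The lung had 29.3%, the occipital lobe 25.2%, the liver 22.9% and the spinal cord 10.5%. The 2 large intestine profiles thus spanned the whole range over the 12 profiles.

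miR-145-5p showed the same profiles high and low. Its C tails were 37.1% (95% Wilson interval 35.0 to 39.2) in the first large intestine profile and 11.6% (10.5 to 12.7) in the second. They were 12.8% (10.1 to 16.2) and 26.5% (20.6 to 33.4) in the 2 kidney profiles. The intervals cover counting error only, and those of miR-143-3p were at most 0.3 percentage points wide for any share of tails. Over the 12 profiles, the share of C tails on miR-145-5p had a Pearson's r of 0.97 with that on miR-143-3p.

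The C tails moved with the library as a whole. The median share of C tails over the other mature sequences with at least 1000 reads was 18% in the first large intestine profile and 5.20% in the second, and it ran from 5.01% to 18% over the profiles. Its r with the share of C tails was 0.92 for miR-143-3p and 0.94 for miR-145-5p. With the reads of all profiles joined, 18.9% of miR-143-3p and 20.3% of miR-145-5p carried C tails, ranks 32 and 29 of 279 sequences whose median was 8.13%. The C tails were singled out after their values were seen and got no test.

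U tails made 10.5% to 17% of the reads of miR-143-3p over the profiles and 13.9% with all profiles joined (rank 30 of 279, where the median was 2.10%). They cannot be compared with those of miR-145, because both arms of mml-mir-145 end in uu in the hairpin. A U added to a read that stops 1 or 2 nt before the annotated end of these arms continues the hairpin and was counted as templated. The U tails seen on miR-145-5p (at most 0.459%) and on miR-145-3p (0.406% to 2.22%) are therefore those on other ends only. With all profiles joined, tails of A alone were seen on 24.6% of the reads of miR-143-5p and 9.50% of those of miR-145-3p. On miR-145-5p they made 1.54% and on miR-143-3p 0.860%. An A added after the annotated end of miR-143-3p or miR-145-5p, or after the most used untailed end of miR-143-5p, continues the hairpin. It was counted as templated there, so that the arms cannot be ranked by their A tails.

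**Figure D5:**
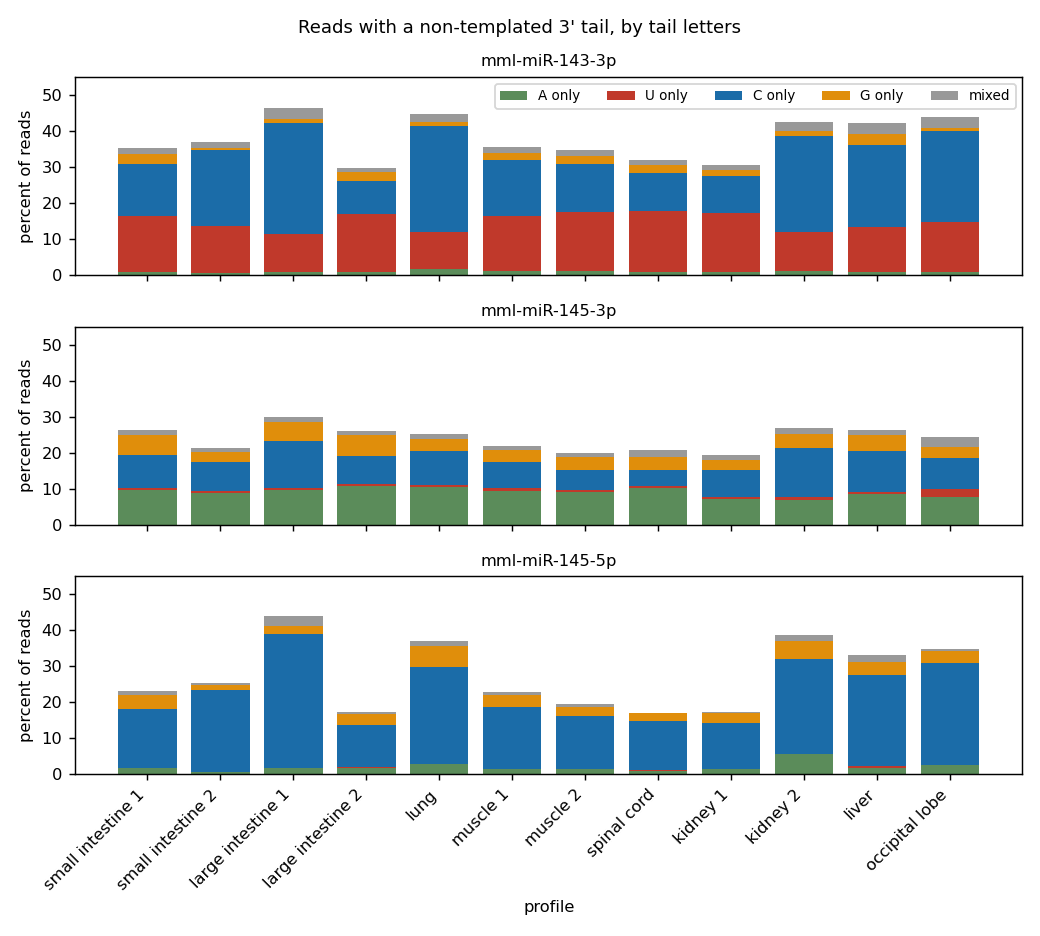
Share of reads with a non-templated 3' tail (percent, stacked bars) in each of the 12 profiles for miR-143-3p, miR-145-3p and miR-145-5p, coloured by the letters of the tail. U tails on the main ends of both miR-145 arms match the hairpin and are not seen here, so that the U parts cannot be compared between the genes. The C part is largest in the first large intestine profile for miR-143-3p and miR-145-5p. For miR-145-3p it is largest in the second kidney profile, with 13.7% against 13.2% in the first large intestine profile.

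None of the tail shares differed between the intestines and the other profiles past the threshold. Tailed reads of miR-143-3p were 37.1% ± 7.0 (SD, n = 4) against 38.3% ± 5.7 (SD, n = 8), with p = 0.76 in the exact permutation test (adjusted p = 0.99). Its U tails were 13.8% ± 2.5 (SD, n = 4) against 14.2% ± 2.6 (SD, n = 8), with p = 0.82 in the exact permutation test (adjusted p = 0.99). Its A tails were 0.75% ± 0.08 (SD, n = 4) against 0.99% ± 0.24 (SD, n = 8), with p = 0.061 in the exact permutation test (adjusted p = 0.50). For miR-145-5p the tailed reads were 27.5% ± 11.5 (SD, n = 4) against 27.6% ± 9.2 (SD, n = 8), with p = 0.99 in the exact permutation test (adjusted p = 0.99).

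Base changes were read in the first 18 bases of each arm. There no change reached 5% of the covering reads with at least 10 changed reads, nor did any reach 1% with 10 reads. In miR-143-3p, where up to 12505240 reads covered a base, the highest share was 0.334%, for A9G in the second large intestine profile, with positions counted from 1 at the 5' end of the mature sequence. The neighbouring A8G was at 0.320% in the same profile. In miR-145-5p the highest share was 0.895%, from 13 of 1453 reads in the first muscle profile (A14C).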

How the data were processed

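Small RNAs of 12 profiles were sequenced on the Illumina platform by the authors, who kept reads with scores of at least 30 in the first 25 nt, trimmed the 3' adapter and gave a count to every distinct sequence of at least 18 nt. The deposited values are these counts per unique sequence, not normalized. No genome sequence was used here.

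Reads were matched to 832 pre-miRNAs of the study's list. For levels, an exact match with both ends within 2 nt was required; for variants, ends within 5 nt and a tail of at most 2 nt. Shared reads of identical copies were counted once. Differences were tested with edgeR 4.0.16 (quasi-likelihood, TMM factors, R 4.3.3) over 371 sequences and adjusted by the Benjamini-Hochberg method. The 26 tests of ratios, ends and tails were exact permutation tests over profiles. Those for the intestines were two-sided with 495 arrangements. Those for tissue pairs were one-sided, toward small differences within pairs, with 105 arrangements. Alternatives included DESeq2 1.42.0, other size factors, no filter, identical reads and leaving out each profile of the 5 groups with 2 profiles. The liver and the lung were not left out of the edgeR fits.

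Depth was 22118095 to 25579064 valid reads. Counting was tested on simulated reads. In simulated counts with 74 of 371 sequences changed by 4-fold, 90.5% were recovered with 3 false calls for neural against the other 6 groups, and 95.9% with 6 false calls for large intestine against the other 6 groups. The simulated counts had the same dispersion for all sequences, and only the group named was changed. The real tissues all differ from each other, so that these rates do not give the power or error of the real contrasts.

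The miRNAs named are the 4 arms, the 5 of other genes most correlated with miR-143-3p or miR-145-5p, up to 6 of the smooth muscle list, and cell type markers by counts and summed levels. The members and lists were chosen with earlier results of these data known. The tables hold no columns of the authors' own comparisons.

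The replicate numbers of the 8 numbered profiles did not pair them, as given in the closing section.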

Additional observations from a re-analysis of the deposited data

How the results depend on the processing

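The intestinal fold changes of the 4 arms kept their direction and stayed past the threshold in all 19 or 20 alternatives, from 2.37 to 3.58 for miR-143-3p and from 2.14 to 3.40 for miR-145-5p on the log2 scale (edgeR or DESeq2 adjusted p at most 0.0040 for these 2 arms). With valid reads and no TMM factors, the neural values were -1.45 for miR-143-3p and -1.41 for miR-145-5p, and with identical reads only miR-145-5p was at -1.71, none past the threshold. In kidney, miR-145-5p passed the threshold with no filter (-1.42), with tailed reads (-1.58) and with 8 tissues as groups (-1.49), and leaving out single profiles gave -2.51 to -0.80 for it and -1.15 to -0.64 for miR-143-3p. Between large and small intestine, miR-143-3p was at -0.052 with valid reads and -0.10 with tailed reads and miR-145-5p at 0.13 with identical reads only, none past the threshold, and leaving out profiles gave -0.25 to 0.40 and -0.88 to 0.39. In muscle, leaving out profiles gave -0.54 to 0.066 for miR-143-3p. The cause of these changes was not tested.

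The same replicate number did not mark profiles that deviated together: over 6 pairs of tissues the correlation of the deviations was 0.03 on average (-0.14 to 0.15), so that the numbers were not taken as pairs. A fit with the replicate block on the 8 numbered profiles, in which a tissue was set against the other 3, gave -1.67 in muscle and -1.93 in kidney for miR-143-3p, -0.75 and -2.54 for miR-145-5p, and -1.11 in muscle for miR-145-3p. The same 8 profiles without the pairing term, tried after seeing the data, gave -1.67, -1.93, -0.75, -2.54 and -1.11. In both fits all of these values passed the threshold except that of miR-145-5p in muscle, as did miR-143-5p in muscle and kidney and miR-145-3p in kidney. Of all sequences in kidney, 109 were called with the block and 118 without it, against 65 in all 12 profiles.

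Counts of called sequences over 1.5 times apart from the main ones were 193 (valid reads) and 84 (identical reads) against 127 in the intestines, 2 (identical reads) and 1 to 10 (single profiles left out) against 7 between the intestines, 77 without the second muscle profile against 141 in muscle, and 100 with no filter, 30 without the first and 35 without the second kidney profile against 65 in kidney.

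Small differences between the intestines and the other profiles turned sign. For tailed reads of miR-145-5p the difference in percentage points was 0.13 with tails of up to 3 nt, 0.0079 with tails of 1 nt, 1.23 with ends within 2 nt and 0.18 from the annotated start. With ends within 2 nt, its mean end differed by 0.015 nt and its shifted starts by 0.16 percentage points. With 8 tissues as groups, miR-143-5p was at 0.18 in muscle. Leaving out single profiles gave -5.56 to 3.32 percentage points for these tailed reads, -0.0050 to 0.088 for U tails, -0.20 to 0.013 for shifted starts and -0.064 to 0.079 nt for the mean end. For miR-143-3p it gave -4.27 to 1.30 percentage points for tailed reads, -1.06 to 0.75 for U tails and -0.014 to 0.062 nt for the mean end. It gave -0.060 to 0.28 for the log2 ratio of the 5p to the 3p arm of miR-145, and in muscle -0.45 to 0.71 for miR-143-5p and -0.11 to 0.34 for miR-145-3p.

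Tissue-pair tests with a profile left out were not run. Depth and the exclusion of tailed reads limited miR-143-5p (581 counted reads). Depth also limited miR-145-5p in the second kidney and the occipital lobe profiles (87 and 84 reads). Levels in tissues with 1 profile have no replicate check.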
